A study of Arabidopsis thaliana with 60 samples.

Results

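The genes described here are the cytochrome P450 genes of Arabidopsis thaliana. Members were all nuclear protein-coding genes whose symbol in the TAIR10.1 RefSeq gene table begins with CYP, a family number, a subfamily letter and a gene number, which gave 224 of 27444 genes. Another 12 nuclear P450 symbols belong to pseudogenes and were left out. The members form 40 families, of which CYP71 is the largest with 49 genes and 13 hold 1 gene. Chromosomes 1 to 5 carry 47, 33, 61, 42 and 41 of them. Their median length was 2052 bp, against 2078 bp for all genes.

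Cytochromes P450 are heme-containing monooxygenases that take electrons from a P450 reductase and insert oxygen into small molecules. A few old families make sterols, carotenoids, hormones and wall phenolics, while large families that grew by tandem duplication, such as CYP71, CYP81 and CYP705, act mostly in defence and specialised metabolism. H3K27me3, a histone mark of silent genes, is written by the Polycomb complex PRC2 and removed by demethylases such as REF6, whereas trimethylation at K4 is found at transcribed genes.

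Both marks were mapped in whole seedlings 8 days old by ChIP-seq, in which chromatin fragments carrying a mark are enriched with an antibody and sequenced. The first series was sequenced single-end, with 2 libraries per genotype and mark. Its genotypes were 35S::ULT1, which expresses the trithorax-group protein ULT1 from a viral promoter, the loss-of-function alleles ult1-2 and ult1-3, and their Landsberg erecta wild type, Ler. It also held ref6-3, a loss-of-function mutant of REF6, with its Columbia wild type, Col-0. The second series was sequenced paired-end, gave 1 H3K27me3 list per genotype, and held ult1-3 clf-28, clf-28, ult1-3 swn-7, swn-7, ult1-3 and Col-0, every mutant being in Col-0 background. CLF and SWN are methyltransferase subunits of PRC2. The K4 libraries' antibody is labelled for histone H4 and their titles give K4, and K4 trimethylation is the name used for it.

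Peaks numbered 6379 to 9945 in the 12 single-end H3K27me3 lists and took in 8.79 to 22.4 M ChIP reads, while the 12 K4 lists had 15527 to 16510 peaks and 16.5 to 22.5 M reads. Paired-end lists had 3703 to 5987 peaks, and their depth is unknown. The most H3K27me3 peaks were in 35S::ULT1, with 9578 and 9945, against 7753 and 7720 in Ler. No label states that a genotype's libraries came from separate batches of plants, so p-values reflect just the spread of these libraries and that spread may be technical. Peak lists do not measure RNA, so the level of the altered gene was not measured. In whole seedlings, fewer cells with a mark and less mark per cell cannot be told apart, and the 2 marks on a gene may come from different cells.

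The value given for a gene is its cover, the percent of its body that lies under peaks. A gene was called marked by H3K27me3 at a cover of at least 50%, and by K4 trimethylation where peaks overlapped 500 bp or more, or 50% or more of it. P450 genes were marked by H3K27me3 more often than genes at large in every list. In 35S::ULT1, 150 and 147 members were marked (67.0% and 65.6%, against 30.8% and 31.3% of all genes). In ult1-2, 121 and 125 were marked (54.0% and 55.8%, against 24.4% and 25.7%), and in ult1-3, 122 and 129 (54.5% and 57.6%, against 24.2% and 26.2%). Ler had 131 and 129 marked members (58.5% and 57.6%, against 26.2% and 25.8%).

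In ref6-3, 148 and 150 members were marked (66.1% and 67.0%, against 28.3% and 29.8% of all genes), and in Col-0, 119 and 120 (53.1% and 53.6%, against 24.3% and 24.3%). Both ref6-3 libraries thus lay above both Col-0 libraries, and both 35S::ULT1 libraries above both Ler libraries. K4 trimethylation showed the reverse balance, with 40.2% to 49.6% of members marked across the 12 libraries, against 59.9% to 64.3% of all genes. Peaks over members were also wider than other H3K27me3 peaks of the same list, for example 3200 and 3400 bp at the median in ref6-3, against 2400 and 2400 bp, and 4000 and 3200 bp in Col-0, against 2600 and 2400 bp. A wide peak is more likely to touch a gene, and the other peaks include those outside genes. Peaks over other genes were not measured apart, so this width cannot be read as a trait of P450 genes.

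**Figure D1:**
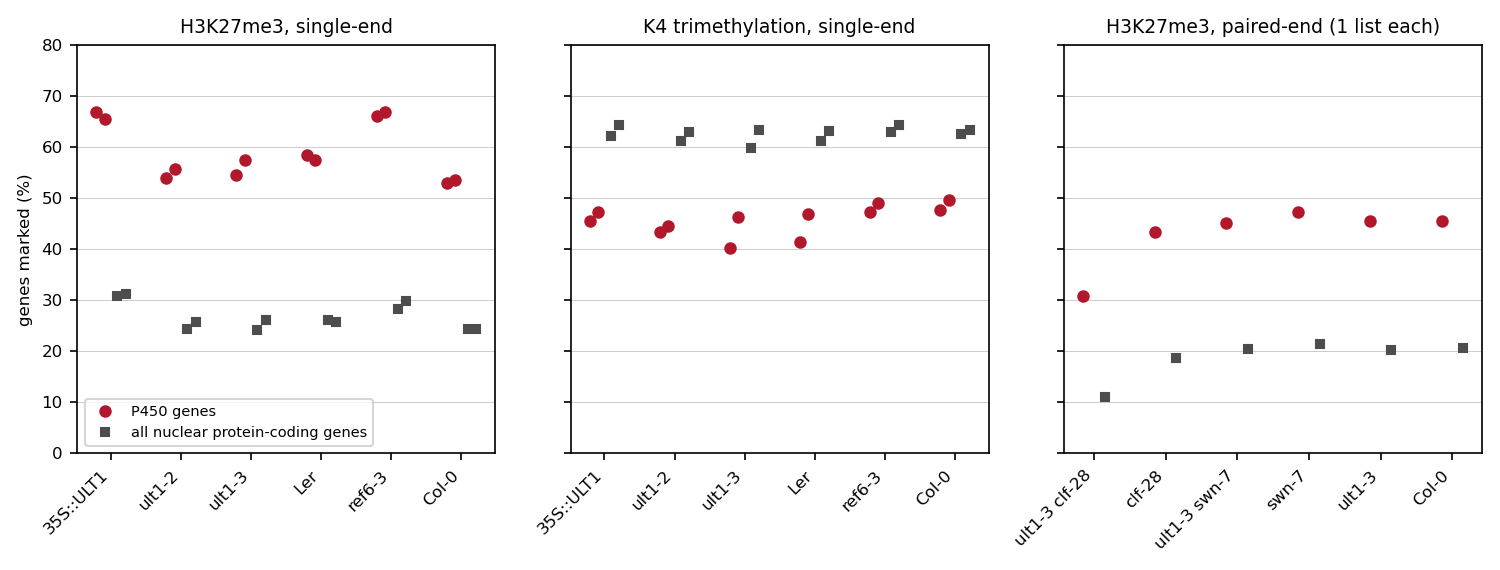
Percent of genes marked in each library (y axis) for P450 genes and for all nuclear protein-coding genes, in 3 panels for single-end H3K27me3, single-end K4 trimethylation and paired-end H3K27me3; each point is 1 library or list. P450 genes lie above all genes in each H3K27me3 list, with 69 members marked (30.8%) in the lowest, ult1-3 clf-28, and below all genes in each K4 library.

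Most members kept a single state in all 12 single-end H3K27me3 libraries. A total of 104 members (46.4%) were marked in every library, against 19.4% of all genes, and 47 (21.0%, against 9.93%) were covered to 100% in every library. Another 51 (22.8%, against 62.4%) were marked in none, and 34 of these lay at a cover of 0 throughout. The remaining 69 (30.8%, against 18.3%) were marked in some libraries only. Counting the 6 paired-end lists as well, 57 members (25.4%, against 8.81%) were marked in all 18 lists.

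The 2 marks divided the family. H3K27me3 in all 12 libraries with no K4 peak in any K4 library held for 63 members (28.1%, against 13.9% of all genes). The opposite state, K4 trimethylation in all 12 and H3K27me3 in none, held for 32 members (14.3%, against 49.5%). Both marks were called in all 24 libraries on 17 members (7.59%, against 1.85%), among them CYP79B3, which starts indole glucosinolate synthesis from tryptophan, CYP81F2, which modifies indole glucosinolates, CYP90D1 of brassinosteroid synthesis and CYP94B3, which inactivates jasmonoyl-isoleucine. The other 13 are CYP705A13, CYP705A33, CYP706A1, CYP706A2, CYP710A2, CYP71A22, CYP71B11, CYP71B12, CYP71B26, CYP71B35, CYP71B4, CYP71B5 and CYP89A2. Members with both marks in both libraries of a genotype numbered 57 in ref6-3 (25.4%, against 6.24% of all genes) and 33 in Col-0 (14.7%, against 3.63%). They numbered 46 in 35S::ULT1 (20.5%, against 7.39%) and 30 in Ler (13.4%, against 4.35%).

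Families differed widely in how many members carried H3K27me3. Below, a family's count is the number marked in both libraries of a genotype. All 6 CYP702 and all 5 CYP82 genes were marked in all 6 single-end genotypes, and no CYP702 gene was marked by K4 trimethylation. CYP71 had 37 of 49 in 35S::ULT1, 30 in ult1-2, 30 in ult1-3 and 32 in Ler, and 40 in ref6-3 against 31 in Col-0. Within CYP71 the 2 subfamilies stood apart. Of the 16 CYP71A genes, 13 were marked in all 12 libraries and 11 had no K4 peak in any. Of the 33 CYP71B genes, 14 were marked in all 12, and the count was 26 in ref6-3 and 17 in Col-0.

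Other families were mostly unmarked or mixed. CYP72 had 3 of 9 marked genes in 35S::ULT1 and 0 in each of ult1-2, ult1-3 and Ler, with 2 in ref6-3 and 1 in Col-0. CYP705 was split, with 13 of 24 in 35S::ULT1 and 11 in Ler, and 13 in ref6-3 and 10 in Col-0, while 9 of its genes were marked in none of the 12 libraries. CYP96, which holds the midchain alkane hydroxylase gene CYP96A15 of wax synthesis, had 11 of 13 in 35S::ULT1 and 7 in Ler, and 10 in ref6-3 and 8 in Col-0. CYP76 had 7 of 8 in 35S::ULT1 and 6 in Ler, and 8 in ref6-3 and 5 in Col-0.

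**Figure D2:**
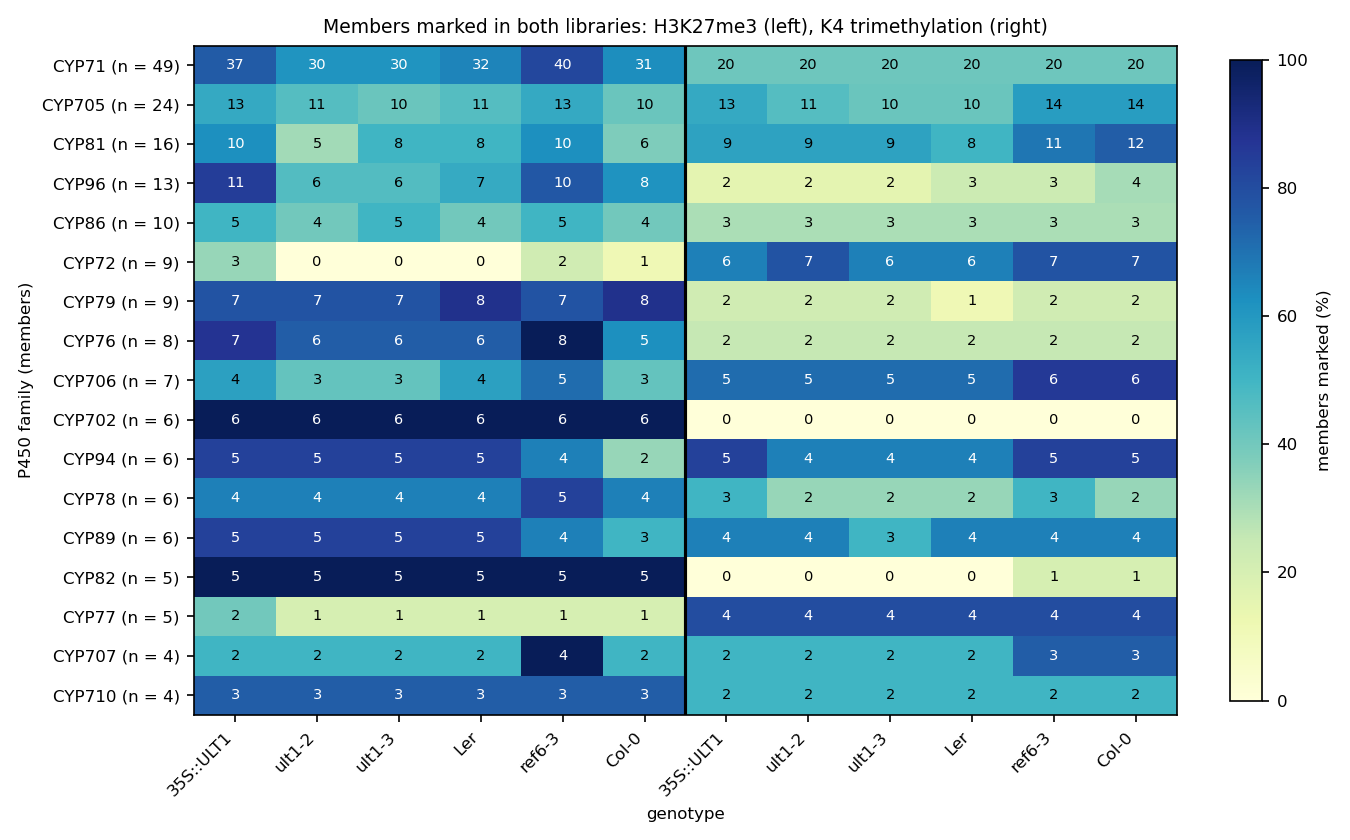
Number of members marked in both libraries of each single-end genotype (x axis), printed in each cell, for the 17 families with at least 4 members (y axis), with H3K27me3 on the left and K4 trimethylation on the right; colour gives the percent of the family marked. CYP702 and CYP82 are full for H3K27me3 in every genotype, whereas CYP71 reaches 40 of 49 in ref6-3, against 31 in Col-0.

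Members were also read by role, in 11 lists of enzymes that held 61 of the 224. The 7 triterpene genes were all marked in every single-end genotype, and they include CYP716A1 and CYP716A2, CYP708A2 and CYP705A5, which act on thalianol, CYP71A16 and CYP705A12 beside the marneral synthase gene, and CYP705A1 beside the arabidiol synthase gene. Their cover was 100% in all 12 libraries. K4 trimethylation was highest on CYP705A5, at 80.3 and 80.3% in 35S::ULT1 against 0 and 60.2% in Ler, and at 70.3 and 70.3% in ref6-3 against 80.3 and 80.3% in Col-0. Of the 13 oxidosqualene cyclase genes, whose enzymes make the triterpene skeletons, 10 were marked in 35S::ULT1 and 8 in Ler, and 8 in ref6-3 and 8 in Col-0. Neither of the 2 P450 reductase genes was marked by H3K27me3 in any genotype, and both carried K4 trimethylation.

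The 11 glucosinolate and indole genes were nearly all marked, 11 in 35S::ULT1 and 9 in Ler, and 11 in ref6-3 and 10 in Col-0. This count leaves out genes of the list held under another symbol. Of these, CYP91A2 (CYP81F1), itself a P450 member, had no H3K27me3 peak in any list. PAD3 (CYP71B15) averaged 79.8 to 94.9% in the single-end genotypes but lay at 0% in every paired-end list, Col-0 included. CYP79F1 and CYP79F2, which start aliphatic glucosinolate synthesis, lay at 98.1 to 100% in all 12 libraries with no K4 peak. CYP71A12 and CYP71A13 of camalexin synthesis lay at 93.9 to 100%, again with no K4 peak. By contrast, CYP83B1, which turns indole-3-acetaldoxime towards glucosinolates, had no H3K27me3 in Ler or Col-0.

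Hormone genes were split by enzyme. Of the 4 genes for abscisic acid 8'-hydroxylases, the enzymes that break down abscisic acid, CYP707A2 and CYP707A4 were marked in every single-end library, at 69.4 to 100%. CYP707A1 and CYP707A3 were marked in ref6-3 only. CYP735A1 and CYP735A2, which make trans-zeatin-type cytokinins, lay at 91.8 to 100% without K4 peaks, while CYP711A1 (MAX1) of strigolactone synthesis had no H3K27me3. CYP90D1 lay at 76.6 to 89.8%, and CYP72C1, which inactivates brassinosteroids, at 67.4 to 73.3% in 35S::ULT1 and 32.05 to 37.9% in the other single-end libraries. The jasmonate genes CYP94B1 and CYP94C1 lay at 80.05 to 96.0% in 35S::ULT1 and 56.0 to 76.0% in Ler, and at 31.5 to 56.0% in ref6-3 and 38.1 to 49.95% in Col-0, and CYP94B3 at 71.5 to 92.3% in all 12 libraries.

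Among lipid polymer genes, CYP86A1 and CYP86B1, fatty acid hydroxylases of suberin, and CYP96A15 lay at 100% in all 12 libraries without K4 peaks. CYP77A4 had no H3K27me3 and carried K4 trimethylation at 67.7 to 96.05%. CYP704B1 of pollen wall synthesis had neither mark anywhere. Genes of sterol, carotenoid, gibberellin and phenylpropanoid pathways were split. CYP51G1, the sterol demethylase, CYP97A3 and CYP97B3 of the carotenoid-hydroxylase family, CYP88A3 of gibberellin synthesis and CYP98A3 of lignin precursor synthesis had no H3K27me3 peak in any single-end library and K4 peaks in all 12. In the same lists CYP710A2, CYP710A3 and CYP710A4, of the sterol desaturase family, were marked in all 12 libraries, at 70.75 to 100%, 61.8 to 100% and 100%. CYP714A1 lay at 96.6 to 100% and CYP714A2 at 39.9 to 73.45% in the 12 libraries, and CYP84A4 at 62.9% in both Ler libraries. In the paired-end lists CYP97B3 differed, with 73.6% in clf-28, against 50.5% in Col-0. In the organ growth family CYP78A, CYP78A5, CYP78A8 and CYP78A10 lay at 100% in all 12 libraries without K4 peaks.

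Tandem arrays, runs of members with at most 5 other genes between neighbours, numbered 38 and held 142 members, and 15 had at least 4. Of array members 63.4% were marked in 35S::ULT1 and 53.5% in Ler, against 68.3% and 62.2% of members outside arrays. In ref6-3 67.6% and in Col-0 49.3% of array members were marked, against 63.4% and 56.1% outside. Array members thus had the lower share in 3 of these 4 genotypes and the higher share in ref6-3. Directly adjacent P450 genes differed in state about as often as adjacent genes at large, in 27.5% of pairs in Ler, against 27.7%, and in 24.6% in Col-0, against 24.5%. Among pairs with at least 1 marked gene, the mixed share was lower for P450 pairs. It was 40.4% in Ler, against 70.1% of all adjacent pairs, and 42.5% in Col-0, against 68.6%. P450 genes are marked more often than genes at large, and neither comparison was adjusted for that. Whether the number of marked genes accounts for the lower share was not tested. Neighbours can lie under the same peak, so pairs are not independent.

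The array on chromosome 4 of CYP702A2, CYP702A3, CYP705A1, CYP705A2, CYP705A3, CYP705A4, CYP702A5 and CYP702A6 was covered along nearly its whole length. Its 8 members were marked in all 12 single-end libraries, 7 of them at 100%, and CYP702A6 at 83.1 to 100%. In Col-0 library 1 a peak on chromosome 4 from 8741601 to 8814600 (TAIR10) covered 6 of them and, at 73000 bp, was the widest of the 6379 peaks of its list. Col-0 library 2 had a peak of 58200 bp there, the second widest of its list, and the ref6-3 libraries had peaks of 56000 and 56200 bp. In Ler the widest peak of the array was 26400 bp in both libraries, from 8742001 to 8768400.

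The largest array, on chromosome 3, holds CYP86C2 and 16 CYP71B genes from CYP71B16 to CYP71B37, and its members differed from neighbour to neighbour. Of the 17, 10 were marked in 35S::ULT1, 8 in ult1-2, 8 in ult1-3 and 9 in Ler, and 15 in ref6-3 and 8 in Col-0. CYP71B21, CYP71B22 and CYP71B25 lay at 100% in all 12 libraries with no K4 peak. Beside them, CYP71B20, CYP71B3 and CYP71B24 lay at 0 in Col-0 and at 94.6 to 100% in ref6-3. CYP71B26, CYP71B34, CYP71B35, CYP71B36 and CYP71B4 were marked in both Col-0 and ref6-3, and CYP71B35 was covered to 100% by K4 trimethylation in all 12 K4 libraries as well.

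The CYP71B array on chromosome 1, with CYP71B2, CYP71B28, CYP71B29, CYP71B7, CYP86C3 and CYP86C4, had 2 members marked in both libraries of 35S::ULT1 and 0 in Ler, and 4 in ref6-3 and 0 in Col-0. The 8 CYP72A genes of chromosome 3 had 2 marked members in 35S::ULT1 (CYP72A10 and CYP72A14) and 0 in Ler, and 2 in ref6-3 (CYP72A8 and CYP72A14) and 1 in Col-0. CYP72A7, CYP72A13 and CYP72A15 had no H3K27me3 peak in any library and K4 cover of 45.9 to 100%. The array of 7 CYP705A genes from CYP705A15 to CYP705A23 had H3K27me3 peaks over 2 genes only, CYP705A20 in ref6-3 and CYP705A19 in 1 library of 35S::ULT1.

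The CYP81 array of chromosome 4 (CYP81H1, CYP81D5, CYP81D4, CYP81D3, CYP81D2, CYP81D8, CYP81F3, CYP81F4 and CYP91A2) had 5 of 9 marked members in 35S::ULT1, 1 in ult1-2, 3 in ult1-3 and 3 in Ler, and 5 in ref6-3 and 2 in Col-0. CYP71A26, CYP71A25, CYP71A24, CYP71A23 and CYP71A22 formed an array with 5 of 6 marked in every genotype, and CYP71A21 at its end lay at 0 to 50.6%. 

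Smaller arrays were mixed as well. The array of CYP704A2, CYP76C4, CYP76C1, CYP76C2 and CYP76C3 had 3 of 5 marked in 35S::ULT1 and 2 in Ler, and 4 in ref6-3 and 1 in Col-0. CYP89A2, CYP89A7, CYP89A6 and CYP89A5 had 4 of 4 in 35S::ULT1 and in Ler, and 3 in ref6-3 and in Col-0. CYP705A28, CYP705A30, CYP705A32 and CYP705A33 had 3 in 35S::ULT1, 2 in ult1-3 and 3 in Ler, and 2 in ref6-3 and in Col-0. CYP706A4, CYP706A5, CYP706A6 and CYP706A7 had 1 in 35S::ULT1 and in Ler, and 2 in ref6-3 and 0 in Col-0, and CYP96A9, CYP96A10, CYP96A11 and CYP96A12 had 3 in 35S::ULT1 and 1 in Ler, and 2 in ref6-3 and 1 in Col-0.

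The array of CYP714A2, CYP714A1, CYP71A15 and CYP71A14, whose CYP714A genes deactivate gibberellins, had 4 of 4 in 35S::ULT1 and 3 in Ler, and 2 in ref6-3 and in Col-0. CYP71B11, CYP71B12, CYP71B13 and CYP71B14 had 4 in 35S::ULT1 and 3 in the other 5 genotypes, and CYP71B5, CYP71B30P, CYP71B31 and CYP71B32 had 3 in all 6. Near the threshold, CYP71B17, CYP72A14 and CYP86A2 averaged 44.9, 47.5 and 48.6% in Ler, and CYP706A6, CYP72A10 and CYP79A3P 51.7, 53.6 and 53.7%. In Col-0, CYP81D2, CYP71B32 and CYP94C1 averaged 46.1, 47.4 and 48.0%, CYP71B16 and CYP71B19 averaged 48.4 and 49.6%, and CYP72A14 and CYP705A9 51.8 and 54.3%.

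**Figure D3:**
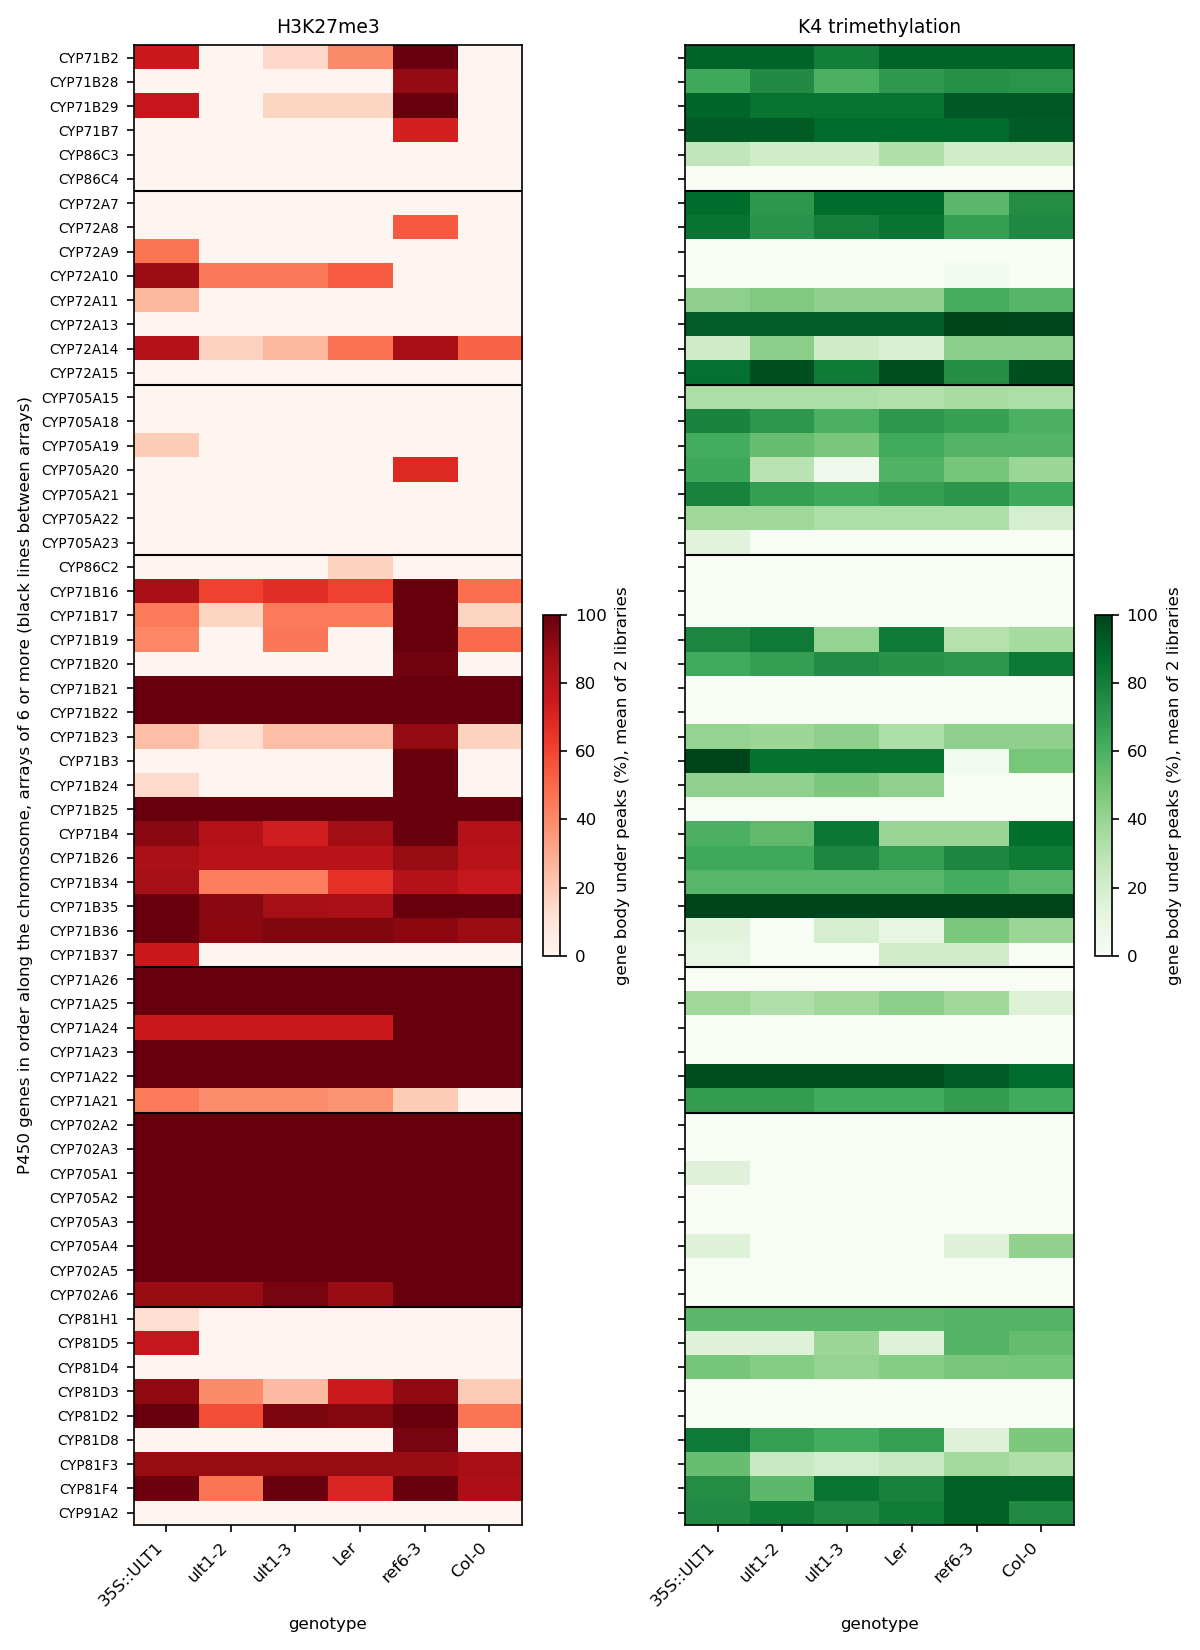
Mean cover over 2 libraries (colour, percent of gene body) of the 61 members in the 7 arrays of at least 6 genes, in chromosome order, for 35S::ULT1, ult1-2, ult1-3, Ler, ref6-3 and Col-0, with H3K27me3 and K4 trimethylation apart. The chromosome 4 array of CYP702A and CYP705A genes is filled in every genotype, whereas 15 of 17 members of the large CYP71B array were marked in ref6-3, against 8 in Col-0.

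H3K27me3 was higher in ref6-3 than in Col-0 on many P450 genes, CYP71B and CYP76C genes and 2 of 4 CYP707A genes among them. Of the 172 members with any cover in these libraries, 33 rose in ref6-3 (19.2%) by limma with Benjamini-Hochberg adjustment over all genes tested, where 15.0% of all genes tested rose. Another 2 of the 172 fell, where 1.6% of all genes tested fell. The mean difference over members was 14.4 percentage points, against 11.8 for all genes, and both medians were 0. By the rule of being marked in both ref6-3 libraries and neither Col-0 library, 31 of the 101 members unmarked in Col-0 were gained (30.7%, against 6.75% of all such genes), a base that also counts genes without a peak in any library. By the reverse rule 2 of 116 were lost (1.72%, against 3.38%).

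CYP71B genes made up 11 of the 33 that rose, 7 of them in the large array of chromosome 3 and 4 in the array of chromosome 1. CYP71B2 lay at 100 and 100% in ref6-3, against 0 and 0% in Col-0 (difference 100 points, SE 13.2, adjusted p by limma 0.000159), and K4 trimethylation covered 90.2% of it in all 4 libraries. CYP71B29, CYP71B3 and CYP71B24 had the same H3K27me3 values. CYP71B28 lay at 96.4 and 84.8% in ref6-3, against 0 and 0% in Col-0 (difference 90.6, SE 13.1, adjusted p by limma 0.000193). In these 5 genes both ref6-3 libraries lay above both Col-0 libraries, as they did in 49 of the 172 members (28.5%) and in 24.9% of all genes tested. In ref6-3 library 1 a peak on chromosome 1 from 4461801 to 4466200, with an authors' fold of 2.6 over control, covered CYP71B28 and CYP71B29 together. CYP71B7 lay at 61.9 and 82.5% in ref6-3, against 0 and 0% in Col-0, and was not covered in any Ler-background library.

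The CYP76C genes include CYP76C1, whose enzyme oxidises the monoterpenol linalool. CYP76C1 lay at 82.1 and 82.1% in ref6-3, against 0 and 0% in Col-0 (SE 12.7, adjusted p by limma 0.0003). CYP76C2 lay at 97 and 97%, against 0 and 0%, and CYP76C3 at 94.3 and 100%, against 0 and 0%. CYP76C4 of the same array was marked in both, at 96.3 and 96.3% in ref6-3 and 61.4 and 70.1% in Col-0. CYP81D8, CYP89A3, CYP71B20 and CYP71B17 complete the 12 largest differences, with means of 96.4, 97.5, 97.3 and 100% in ref6-3, against 0, 0, 0 and 16.2% in Col-0.

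Hormone, glucosinolate, cutin and growth genes were among the 33. Both CYP707A1 and CYP707A3 lay at 57% to 57.1% in each ref6-3 library, against 0 in each Col-0 library (differences 57.05 and 57.07, SE 12.1 each, adjusted p by limma 0.00331 and 0.00335). Leaving out Col-0 library 2 ended both calls, at an adjusted p of 0.0537. CYP83B1 lay at 60.1 and 60.1%, against 0 and 0% (SE 12.4, adjusted p by limma 0.0027), the only call among 11 glucosinolate and indole genes. Of the 9 cutin, suberin, wax and sporopollenin genes tested, CYP86A4 and CYP77A6, both of cutin synthesis in flowers, rose to means of 67.4 and 43.6%, against 0 and 0% in Col-0. CYP78A6, which promotes seed and organ growth, rose to 52.35%, against 0% (adjusted p by limma 0.00537), as 1 of 6 CYP78A genes, and this call was lost without either Col-0 library. In the triterpene, gibberellin, jasmonate and brassinosteroid lists no member passed the test. Among 15 P450 genes of these pathways held under another symbol, 8 had cover and 2 rose, DWF4 by 60.9 points (SE 12.2) and BR6OX1 by 55.3 (SE 13.4), both of brassinosteroid synthesis.

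CYP71B38 and CYP71B9 fell. CYP71B38 lay at 0 and 0% in ref6-3, against 100 and 100% in Col-0 (SE 13.3, adjusted p by limma 0.000159), and CYP71B9 at 0 and 0%, against 75 and 85.7% (adjusted p 0.000383). Both were also at 0 in all 6 paired-end lists, Col-0 included. Under every alternative 16 of the 33 higher calls and both lower ones remained. Calls on 20 of the 33 members that rose and on both that fell remained when each library was left out in turn. Without Col-0 library 2, the rule lost 4 members in place of 2. With equal numbers of peaks per list, 31 of the 33 and both lower calls remained.

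**Figure D4:**
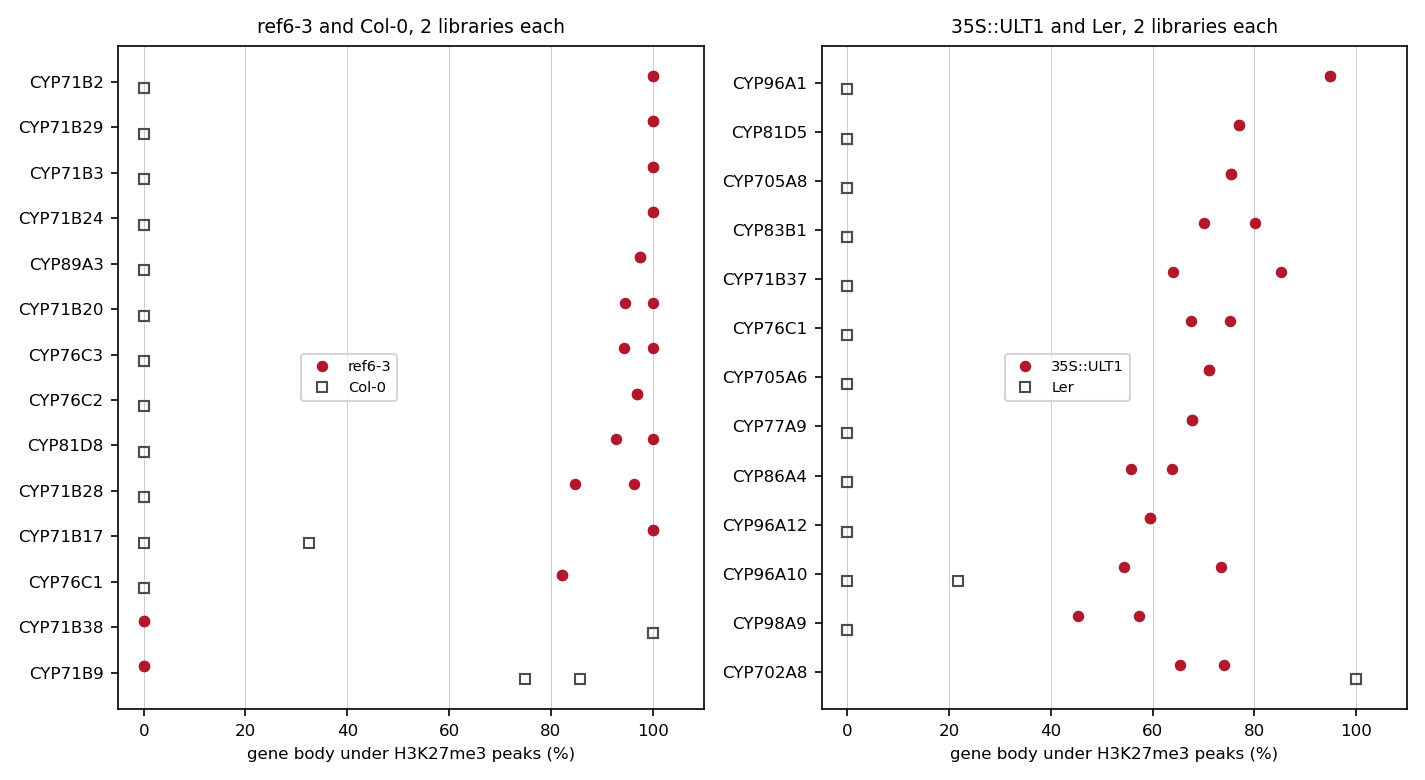
H3K27me3 cover in each library (x axis, percent of gene body) of the 12 members with the largest increase and of the members that fell, with ref6-3 against Col-0 in the first panel and 35S::ULT1 against Ler in the second; each point is a library. CYP71B2, CYP71B3, CYP71B24 and CYP71B29 lie at 100% in ref6-3, against 0% in Col-0, and CYP96A1 lies at 94.8% in 35S::ULT1, against 0% in Ler.

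The members that rose in ref6-3 were mostly K4-marked genes in wild type, 25 of 33 (75.8%) in Col-0, against 47.9% of the 1533 genes that rose. K4 trimethylation itself changed on few members: 2 of 124 rose by limma (1.61%, against 0.431% of genes tested) and 4 fell (3.23%, against 0.328%). CYP71B3 had K4 cover of 3.55 and 3.55% in ref6-3, against 43.6 and 53.6% in Col-0 (SE 7.08, adjusted p by limma 1.48e-07). CYP81D8 had 0 and 29.9%, against 47.1 and 47.1% (adjusted p by limma 0.00135). These were the 2 members with more H3K27me3 and less K4 trimethylation in ref6-3. CYP96A4 had 0 and 0%, against 39 and 29.2%, and CYP71B4 had 39.6 and 39.6%, against 86.5 and 86.5%, both on genes that carried H3K27me3 in both genotypes. CYP711A1 rose to 54.55 and 54.55%, against 15.4 and 15.4% (SE 7.07, adjusted p by limma 1.05e-05), and CYP78A7 to 26.1 and 26.1%, against 0 and 0%. Without Col-0 library 2, 3 members were called in place of 6, and without Col-0 library 1, 9. None of the 6 calls remained under every alternative. CYP711A1 was lost without either Col-0 library, CYP78A7 without Col-0 library 2 or either ref6-3 library, CYP81D8 without Col-0 library 2 or ref6-3 library 1, and CYP71B4 without any 1 of the 4. CYP71B3 and CYP96A4 remained without each library and were lost with equal numbers of peaks.

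35S::ULT1 had H3K27me3 over more P450 genes than Ler, CYP96A1, CYP81D5 and CYP83B1 among them. Of 176 members with cover in the Ler-background libraries, 23 rose in 35S::ULT1 by limma (13.1%), near the 12.4% of all genes tested, and 1 fell (0.568%, against 0.457%). The mean difference was 10.9 points over members and 12.1 over all genes, and both medians were 0. By the rule, 15 of the 91 members unmarked in Ler were gained (16.5%, against 5.83%), a base that also counts genes without a peak in any library. By the reverse rule 0 of 127 were lost (0.89% of all genes). These gains moved with the number of peaks, which was larger in both 35S::ULT1 libraries. With equal numbers of peaks per list 7 members were called in place of 24, 3 of the 23 higher calls remained, and 5 were gained by the rule.

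CYP96A1 lay at 94.8 and 94.8% in 35S::ULT1, against 0 and 0% in Ler (SE 8.81, adjusted p by limma 0.00316). CYP81D5 lay at 77 and 77%, against 0 and 0% (SE 7.21, adjusted p by limma 0.00316), and these were the 2 calls that remained under every alternative. CYP83B1 lay at 80.2 and 70.2%, against 0 and 0% (SE 7.96, adjusted p by limma 0.00316). CYP705A8, CYP705A6, CYP71B37 and CYP76C1 lay at means of 75.5, 71.2, 74.7 and 71.4%, each against 0% in both Ler libraries. CYP77A9, CYP86A4, CYP96A12, CYP96A10 and CYP98A9, the last of pollen phenolamide synthesis, complete the 12 largest, with means of 67.8, 59.8, 59.6, 63.9 and 51.35%, against 0, 0, 0, 10.9 and 0%.

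By family the 23 were spread over CYP71, CYP705 and CYP72 with 4 each, CYP96 with 3, CYP76 and CYP77 with 2 each and 4 families with 1. CYP72C1 rose to 73.3 and 67.4%, against 32.05 and 32.05% in Ler (SE 8.05, adjusted p by limma 0.0236), as 1 of 2 brassinosteroid members, a call lost without any 1 of the 4 libraries. Of the cutin, suberin, wax and sporopollenin genes CYP86A4 and CYP77A6 rose, as 2 of 9 tested. None of 7 triterpene, 6 CYP78A or 3 tested abscisic acid genes passed. Of 9 tested P450 genes under another symbol 3 rose, AOS of jasmonate synthesis by 78.7 points (SE 7.98), FAH1 of sinapate synthesis by 38.3 and CPD of brassinosteroid synthesis by 27.9.

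CYP702A8 was the only member that fell, to 65.5 and 74.1%, against 100 and 100% in Ler (SE 7.44, adjusted p by limma 0.0411), a call likewise lost without any 1 of them. Leaving out 35S::ULT1 library 3, Ler library 1 or Ler library 3 left 14, 13 and 14 called members in place of 24. In Ler, 12 of the 23 higher members carried K4 trimethylation (52.2%, against 66.6% of the 1414 genes that rose). K4 trimethylation passed limma on 0 of 123 members in either direction (0.0159% of genes tested rose and 0.0% fell), with 1 member at an unadjusted p under 0.05. With the library number as a block, 2 passed: CYP705A32, at 38.6 and 19.3%, against 0 and 0% (adjusted p by limma 0.0093), and CYP705A5 (0.000763). The share of all genes that passed with the block was not taken. Without 35S::ULT1 library 3 or Ler library 1, 1 member passed without the block.

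The ult1 mutants differed little from Ler in H3K27me3 over P450 genes. The mean difference over members was -3.0 points in ult1-2 and -2.06 in ult1-3, against -2.35 and -2.11 over all genes, and all 4 medians were 0. In ult1-2 limma called 0 of 176 members higher and 0 lower (0.0615% and 0.00878% of genes tested), with 4 at an unadjusted p under 0.05 and a smallest adjusted p of 0.444. By the rule 2 of 127 were lost (1.57%, against 2.64%), CYP71A15 and CYP79A3P, and 1 of 91 was gained (1.1%, against 0.422%), CYP87A2. CYP71A15 lay at 22 and 14.1% in ult1-2, against 68.7 and 76.5% in Ler, while CYP79A3P lay at 43.8 and 43.8%, against 53.7 and 53.7%, close to the threshold. CYP87A2 lay at 52.2 and 59.7%, against 37.5 and 44.7%. Without ult1-2 library 3, Ler library 1 or Ler library 3, the rule lost 8, 4 and 6 members, and without ult1-2 library 3 it gained 2.

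In ult1-3 limma called 0 members higher (0.0791% of genes tested) and 1 lower (0.568%, against 0.0878%), with 4 at an unadjusted p under 0.05. That member, CYP705A32, lay at 19.3 and 38.6% in ult1-3, against 100 and 100% in Ler (SE 8.34, adjusted p by limma 0.0404), and no call remained when any of the 4 libraries was left out. By the rule 3 were lost (2.36%, against 2.1%), CYP705A32, CYP81D3 and CYP79A3P, and 1 was gained (1.1%, against 0.363%), CYP86A8, a fatty acid hydroxylase gene of cutin synthesis, at 50.6 and 50.6%, against 43.1 and 43.1%. Without ult1-3 library 3 or Ler library 3 the rule lost 8 and 5 members, and without ult1-3 library 1 or Ler library 3 it gained 3 and 2. The 3 comparisons with Ler share its 2 libraries, and the base for gains in each also counts genes without a peak in any library.

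For K4 trimethylation, limma called 0 of 123 members in ult1-2 (0.0% of genes tested rose and 0.0% fell), with 0 at an unadjusted p under 0.05, and 0 in ult1-3 (0.0159% and 0.0%), with 3 at an unadjusted p under 0.05. K4 libraries with the same number moved together in the Ler background, and with the number as a block 1 member passed in ult1-2 and 4 in ult1-3. The share of all genes that passed with the block was not taken, so these counts cannot be set beside genes at large. In ult1-2, CYP705A5 had 70.3 and 70.3%, against 0 and 60.2% in Ler (adjusted p by limma 0.0493). In ult1-3, CYP705A20 had 4.86 and 4.86%, against 83.4 and 34.3% (adjusted p by limma 4e-08), and CYP89A6 had 23.2 and 34.8%, against 57.9 and 81.1% (0.0166). CYP71B4 had 79.3 and 86.5%, against 39.6 and 39.6%, and CYP81D5 23.1 and 53.9%, against 7.7 and 23.1% (adjusted p by limma 0.00817 each). Leaving out Ler library 1 gave 1 call in place of 0 in ult1-2 and in ult1-3, without the block.

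In the paired-end lists many P450 genes marked in Col-0 lay below 50% in clf-28 and ult1-3 clf-28, and fewer in swn-7. Each genotype has 1 list there, so lost and gained mean crossing 50% and there is no test, and all 5 mutants share the Col-0 list. In ult1-3 clf-28, 38 of 102 members marked in Col-0 were lost (37.3%, against 50.7% of all genes) and 5 of 122 gained (4.1%, against 1.19%), CYP96A8, CYP96A3, CYP705A6, CYP86A8 and CYP71B16. In clf-28, 24 were lost (23.5%, against 29.3%) and 19 gained (15.6%, against 5.06%). In ult1-3 swn-7, 8 were lost (7.84%, against 11.5%), CYP89A6, CYP82F1, CYP710A2, CYP705A28, CYP706A7, CYP97B3, CYP96A13 and CYP94B1, and 7 gained (5.74%, against 2.68%), CYP96A8, CYP71B23, CYP71B36, CYP79A2, CYP714A2, CYP79A3P and CYP81D1.

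In swn-7, 2 were lost (1.96%, against 8.17%), CYP705A28 and CYP97B3, and 6 gained (4.92%, against 2.96%), CYP96A8, CYP96A1, CYP71B36, CYP714A2, CYP71B14 and CYP81D1. In ult1-3, 10 were lost (9.8%, against 13.8%), CYP78A8, CYP79C1, CYP710A2, CYP705A28, CYP71B30P, CYP97B3, CYP81F3, CYP86B1, CYP96A4 and CYP81F2. Another 10 were gained there (8.2%, against 2.98%), CYP96A8, CYP86A7, CYP71B16, CYP71B34, CYP71B35, CYP71B36, CYP81F4, CYP84A4, CYP79A2 and CYP79A3P. In single-end Col-0, CYP96A8 and CYP71B35 averaged 100%, CYP71B36 89.1%, CYP81F4 85.1%, CYP71B34 77.25%, CYP86A7 74.45%, CYP79A3P 68.7% and CYP79A2 63.9%. The gain of these members is thus seen against the paired-end Col-0 list only, and several also count as gained in other mutant lists. CYP71B16 and CYP84A4 averaged 48.4 and 36.7% in single-end Col-0. Marked members numbered 69 in ult1-3 clf-28 (30.8%), 97 in clf-28 (43.3%), 101 in ult1-3 swn-7 (45.1%), 106 in swn-7 (47.3%), 102 in ult1-3 (45.5%) and 102 in Col-0 (45.5%). The share of marked members lost lay below that of all genes in each of the 5 lists, and the share of unmarked members gained lay above it. The base for gains again counts genes without a peak in any list. In the single-end series, H3K27me3 cover was 0 in all 12 libraries for 15.2% of members and 54.3% of all genes. The shares gained thus do not compare like with like.

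CYP71A and CYP702 genes stood among the losses in clf-28. CYP71A19, CYP71A20 and CYP71A28 lay at 0% in ult1-3 clf-28 and in clf-28, and at 100% in swn-7 and Col-0. CYP71A27 lay at 0% in ult1-3 clf-28 and 21.9% in clf-28, against 100% in Col-0. CYP702A1 and CYP705A24 lay at 0% in both, against 100% in Col-0. Of the genes marked in Col-0, 4 of 6 in CYP702 and 10 of 23 in CYP71 crossed below 50% in each of the 2 lists, where 50.7% of all marked genes did so in ult1-3 clf-28 and 29.3% in clf-28.

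The chromosome 4 array of CYP702A and CYP705A genes lay under narrower peaks in these 2 lists, and most of its members stayed marked. Its peaks measured 1600 to 5800 bp in ult1-3 clf-28 and 1400 to 5600 bp in clf-28, against 7600 to 18400 bp in Col-0, where CYP705A1 and CYP705A2 lay under a peak from 8750401 to 8768800. Of its 8 members, 5 were marked in ult1-3 clf-28 and 6 in clf-28, against 8 in Col-0. Peaks touching no P450 member were narrower in these lists too, 2200 and 1800 bp at the median, against 2600 bp in Col-0. In ult1-3 swn-7 a peak of 61000 bp and in swn-7 a peak of 50800 bp covered CYP705A1 to CYP705A4, each the second widest of its list. CYP702A6 lay at 10.5% in ult1-3 clf-28 and 0% in clf-28, against 100% in Col-0. CYP705A3 lay at 0% in ult1-3 clf-28 and 91% in clf-28, against 100% in Col-0, and CYP702A2 at 0 and 76.5%, against 100%. Among oxidosqualene cyclase genes, 2 were marked in ult1-3 clf-28 and 4 in clf-28, against 8 in Col-0.

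Some lipid and growth genes differed between the lists too. CYP86B1 lay at 0% in ult1-3 clf-28, 78.8% in ult1-3 swn-7, 23.3% in ult1-3, 0% in clf-28 and 71.7% in swn-7, against 87% in Col-0. CYP78A8 lay at 0% in ult1-3 clf-28 and in ult1-3, 99.1% in clf-28 and 100% in swn-7, against 78.8% in Col-0. CYP86A1, CYP78A5 and CYP78A10 lay at 100% in all 6 lists. CYP81F2 lay at 48.5% in ult1-3 clf-28 and in ult1-3 and at 85.4% in clf-28, against 77.6% in Col-0, near the threshold in the first 2.

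Gains in clf-28 included 3 CYP76C genes. CYP76C4, CYP76C1 and CYP76C2 lay at 96.3, 82.1 and 60.3% in clf-28, and at 0% in ult1-3 clf-28 and in Col-0. CYP703A2, a pollen wall gene, lay at 91.3% in clf-28 and 0% in the other 5 lists. CYP71B8 and CYP81D2 lay at 92 and 96.7% in clf-28, against 0 and 0% in the paired-end Col-0 list. In single-end Col-0, CYP76C4, CYP703A2, CYP71B8 and CYP81D2 averaged 65.8, 28.1, 94.8 and 46.1%, and CYP76C1 and CYP76C2 0%. CYP703A2 and CYP81D2 differed widely between those libraries (SD 39.7 and 65.2). CYP96A3 lay at 97% in ult1-3 clf-28 and in clf-28, against 0% in Col-0 of the same series, although all 12 single-end libraries, Col-0 included, had it at 100%. The 2 Col-0 data sets differed on 19 of the 116 members marked in both single-end libraries, which were unmarked in the paired-end list, and on 4 of 101 the other way. For all genes 79.6% of those marked single-end were marked paired-end, and for members 83.6%.

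**Figure D5:**
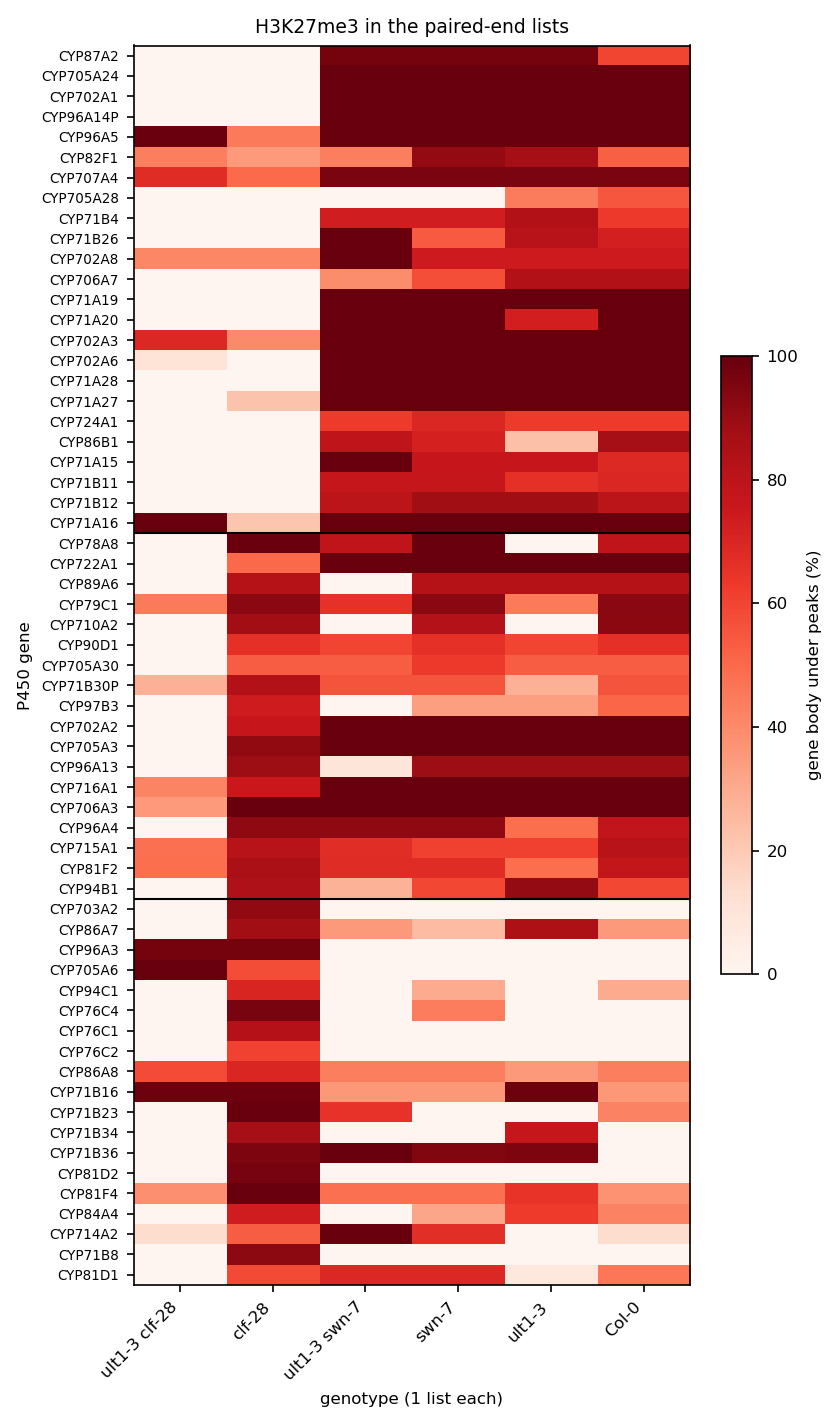
H3K27me3 cover (colour, percent of gene body) in the 6 paired-end lists, 1 per genotype, for the 24 members that crossed below 50% in clf-28, 18 that did so in ult1-3 clf-28 and not in clf-28, and 19 that crossed above 50% in clf-28; all comparisons share the Col-0 list. CYP71A19, CYP71A20 and CYP71A28 lie at 0% in both clf-28 lists, against 100% in Col-0, and CYP76C4 and CYP76C1 at 96.3 and 82.1% in clf-28, against 0% in Col-0. In single-end Col-0, not drawn here, CYP76C4 averaged 65.8%.

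Between the wild types, a few P450 genes lay at full H3K27me3 cover in Col-0 or Ler and at or near 0 in the other, while calls were no more frequent than over all genes. Of 154 members tested, 3 were higher in Col-0 than in Ler by limma (1.95%, against 3.75% of genes tested) and 8 lower (5.19%, against 6.07%). CYP96A8 lay at 100 and 100% in Col-0, against 0 and 0% in Ler (SE 14.9, adjusted p by limma 0.000429). It was unmarked in the paired-end Col-0 list, so the single-end and paired-end Col-0 data differ on this gene. CYP705A32 lay at 0 and 0% in Col-0, against 100 and 100% (SE 14.8), and CYP76C2 at 0 and 0%, against 97 and 97% (SE 14.65), both with an adjusted p of 0.000429. CYP89A5 and CYP81D1 averaged 0 and 26.8% in Col-0, against 68.2 and 84.2% in Ler. CYP81D3, CYP72A10, CYP706A6 and CYP71A21 were lower, and CYP71B19 and CYP705A9 higher, in Col-0. With all annotated genes tested 0 were called by limma, and without Col-0 library 1, Ler library 1 or Ler library 3 there were 6, 4 and 5 in place of 11.

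K4 trimethylation was higher in Col-0 on 15 of 126 members (11.9%, against 2.04% of genes tested) and lower on 3 (2.38%, against 1.39%), by limma. CYP87A2 had 60 and 60% in Col-0, against 0 and 0% in Ler (SE 6.72, adjusted p by limma 2.84e-16). CYP705A25 had 38.4 and 48%, against 0 and 0%, and CYP82F1 35 and 35%, against 0 and 0%. CYP71B24 had 0 and 0% in Col-0, against 42 and 42% in Ler (SE 6.91, adjusted p by limma 1.59e-07), and CYP71B19 and CYP71A25 were also lower. The other higher members were CYP705A6, CYP81G1, CYP705A5, CYP71B4, CYP71B13, CYP81D5, CYP705A4, CYP706A7, CYP94B2, CYP71B36, CYP705A28 and CYP72A14. Leaving out Col-0 library 2 or Ler library 1 left 9 and 10 calls in place of 18. Calls on CYP87A2, CYP705A25, CYP82F1, CYP706A7 and CYP705A4, higher, and on CYP71B24, lower, remained without each library, and the other 12 did not. Under every alternative 2 of the 15 higher calls remained, CYP87A2 and CYP82F1, and 1 of the 3 lower ones, CYP71B24. Reads of Ler were mapped to a build made from Col-0, so a difference in sequence and a difference in the mark cannot be told apart here.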

How the data were processed

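The study holds 60 ChIP-seq and input libraries of Arabidopsis seedlings, of which 36 are ChIP libraries. Per the submitters' processing notes, reads were handled with CASAVA 1.8.2, BWA 0.6.2-r126 and 0.7.17-r1188, SAMtools 0.1.19 and 1.16.1, Picard 1.93 and 2.26.10 and bedtools 2.17.0-97 and 2.30.0, and peaks were called with SICER 1.1 on TAIR10. The labels' protocols say that ChIP reactions of a sample were pooled. The authors deposited 24 single-end lists, 1 per library, and 6 paired-end lists, 1 per genotype, none with a header. Column roles were read from the order of SICER output and from the values. The deposited single-end lists give ChIP read counts, p-values, q-values (the largest was 9.99e-05) and a fold over control for each peak, and the paired-end lists give a deposited score of unknown unit, which was not used. The 24 control-read columns were not used. The library number of 2 K4 lists, of Ler and ult1-2, stands in no label.

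Cover is the share of a gene's body under peaks, over genes of the RefSeq table of TAIR10.1. That table fitted the lists: among 116 windows, shifting the genes gave no better overlap in 97, and the largest best shift was 1000 bp. Percent cover was compared with limma 3.58.1 in R 4.3.3, with trend and robust shrinkage, over genes with any cover in the fit, and p-values were adjusted by Benjamini-Hochberg over all of them at 0.05. Ler and its 3 genotypes were fitted together, and ref6-3 with Col-0 and Col-0 with Ler apart. The residual variance was kept at or above that of 1 window of 200 bp, since many genes had the same cover in both libraries. The scripts, in Python 3.11.15 with pandas 2.3.3, numpy 2.4.6 and matplotlib 3.10.9, were tested on simulated data. By the rule, a gene was lost or gained when both libraries of 1 genotype were marked and neither of the other.

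K4 libraries of the same number deviated together in all 6 pairs of genotypes of Ler background (correlations 0.425 to 0.526). The number in the lists was thus taken to pair them. H3K27me3 libraries did so less (-0.0439 to 0.353), with 0.353 between ult1-2 and ult1-3. The K4 calls without a block leave this pairing out, and calls with the number as a block are given beside them. Genes named in each comparison are the members called, or the 12 largest differences where a direction holds more, members of the functional lists described, and members of arrays of at least 4 genes. Other genes were named after their values were seen. The members and lists were chosen with earlier results of these data known. Searches for motifs in proteins and promoters were not run, since no sequences were used here.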

Additional observations from a re-analysis of the deposited data

How the results depend on the processing

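Directions held throughout: no call on a named member changed sign under any alternative. The count of changed members in ref6-3 for H3K27me3 stayed between 24 and 34 under every alternative with all libraries, against 35. Without the variance floor, H3K27me3 calls were 1 in ult1-2, 5 in ult1-3, 40 in 35S::ULT1 and 22 for Col-0 against Ler, and K4 calls were 1 in ult1-3, 16 in ref6-3 and 9 for Col-0 against Ler. With equal numbers of peaks (6379, 15527 or 3703 per list), H3K27me3 calls were 7 in 35S::ULT1, 1 in ult1-2 and 2 in ult1-3, members gained by the rule 5 in 35S::ULT1, 3 in ult1-2 and 2 in ult1-3, and lost 1 in 35S::ULT1. The same setting gave 7 lost in paired-end swn-7 and 9 gained in ult1-3 clf-28. Over all annotated genes, H3K27me3 calls were 0 in ult1-3 and 0 for Col-0 against Ler, and K4 calls 11 for Col-0 against Ler. Peaks at a q under 1e-10 gave 0 H3K27me3 calls in ult1-3. With the library number as a replicate block, H3K27me3 calls were 22 in 35S::ULT1, 0 in ult1-3 and 29 in ref6-3, and K4 calls were 2 in 35S::ULT1, 1 in ult1-2, 4 in ult1-3 and 5 in ref6-3; it changed no other count of these comparisons by over 1.5 times. ref6-3 and Col-0 libraries share only a number, with deviations correlated at -0.0122 for H3K27me3 and 0.327 for K4 trimethylation. No paired analysis was possible for H3K27me3 in Col-0 against Ler because they share only library number 1. For K4 the titles of both give numbers 1 and 2. With these as a replicate block, chosen after seeing the data and taking the Ler list without a matching title as number 2, 11 K4 calls remained in place of 18, and the deviations correlated at 0.00957. At a minimum cover of 20%, the rule gave 0 gained in ult1-2, 1 lost in ult1-3 and 23 gained in 35S::ULT1, and paired-end ult1-3 had 6 lost and 4 gained and ult1-3 clf-28 3 gained. At 80% it gave 1 lost and 0 gained in ult1-2, 0 gained in ult1-3, 1 lost and 9 gained in 35S::ULT1 and 1 lost in ref6-3, and paired-end ult1-3 had 16 gained, swn-7 4 lost and 12 gained and ult1-3 swn-7 11 gained. Leaving out each library gave 0 to 0 H3K27me3 calls in ult1-2 and in ult1-3, 13 to 17 in 35S::ULT1, 26 to 29 in ref6-3 and 4 to 9 for Col-0 against Ler. It gave 3 to 8 lost in ult1-2 and in ult1-3, 2 to 4 in ref6-3 and 0 to 1 in 35S::ULT1, and 16 to 18 gained in 35S::ULT1, 1 to 2 in ult1-2, 1 to 3 in ult1-3 and 31 to 34 in ref6-3. K4 calls were 0 to 1 in each of 35S::ULT1, ult1-2 and ult1-3, 3 to 9 in ref6-3 and 9 to 20 for Col-0 against Ler. The cause of these shifts was not tested. Cover moves in steps of 200 bp, so short genes change in large steps, and with 2 libraries per genotype small differences were not detectable. Depth is not known for the paired-end lists.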

Other observations

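At 3 P450 genes of chromosome 3, chosen after their values were seen, single-end ult1-3 lay nearer to Col-0 than to Ler, although its labels place it in Ler background. CYP705A32 had H3K27me3 cover of 19.3 and 38.6% in ult1-3, against 100 and 100% in Ler, and 0 and 0% in Col-0. CYP71B19 had H3K27me3 cover of 41.0 and 51.2% in ult1-3, against 0 and 0% in Ler, and 58.3 and 41.0% in Col-0, and its K4 cover was 41.0 and 41.0% in ult1-3, against 81.9 and 81.9% in Ler, and 30.7 and 41.0% in Col-0. CYP71B4 had K4 cover of 79.3 and 86.5% in ult1-3, against 39.6 and 39.6% in Ler, and 86.5 and 86.5% in Col-0. Between these 2 CYP71B genes the array was mixed. CYP71B23 had mean K4 cover of 42.35% in ult1-3 and in Col-0, against 32.9% in Ler. CYP71B24 and CYP71B3 lay nearer to Ler. CYP71B24 had K4 cover of 32.2 and 61.5% in ult1-3, against 42.0 and 42.0% in Ler, and 0 and 0% in Col-0, and CYP71B3 had 69.97 and 100% in ult1-3, against 100 and 69.97% in Ler, and 43.6 and 53.6% in Col-0. On chromosome 4, CYP81D5 had mean K4 cover of 38.5% in ult1-3, against 15.4% in Ler and 53.9% in Col-0. How many members lay nearer to each wild type was not counted. The H3K27me3 differences between ult1-3 and Ler passed limma only for CYP705A32, and a difference between genetic backgrounds in this line was not tested.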
